A study of Homo sapiens with 12 samples.

Results

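The 8 genes described here encode chaperones, disulfide isomerases and regulators of the endoplasmic reticulum (ER): HSP90B1, PDIA3, PDIA6, HYOU1, SDF2L1, DNAJC3, HERPUD1 and XBP1. They were taken by name from a table of 37471 genes. All 8 were in the table, and all 8 had a mean of at least 1 FPKM, which 9778 genes had and which was the limit for testing. FPKM are read fragments corrected for the length of the transcript and the size of the library. The libraries were made from polyA RNA of CAL62, a cell line derived from anaplastic thyroid carcinoma, and both lines compared are isogenic derivatives of it with a doxycycline-inducible insert. The inserts give mature hsa-miR-139-5p (the miR-139 line) or a non-targeting, scrambled control (the scrambled line). The 4 groups were the miR-139 line given 1 µg/ml doxycycline for 96 h, the same line untreated, the scrambled line given the same dose for the same time, and the scrambled line untreated, with 3 libraries each. The labels place the untreated libraries at the start of the 96 h, so within a line doxycycline and time cannot be told apart. They do not say whether either line is a single clone. Column headers gave each library a group and a tag, NE, C or TR, with 1 library of each tag in each group, and did not say what the tags stand for.

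The ER folds proteins that are to be secreted or placed in membranes. When unfolded proteins accumulate there, 3 membrane sensors, ERN1 (IRE1), EIF2AK3 (PERK) and ATF6, start the unfolded protein response: IRE1 splices XBP1 mRNA into the form that encodes an active transcription factor, ATF6 is cut in the Golgi to release another, and PERK phosphorylates a translation initiation factor and thereby favours ATF4 protein. These factors act on genes for chaperones, for disulfide bond formation and for ER-associated degradation, the route by which misfolded proteins reach the proteasome. Thyroid follicular cells carry a large secretory load because they fold and export the thyroid prohormone. Among the genes described here, HSP90B1 (GRP94) is the HSP90 of the ER, HYOU1 (GRP170) is a large relative of HSP70, DNAJC3 (p58IPK) is a J-domain partner of the ER HSP70, and SDF2L1 is a soluble ER protein that binds other J-domain partners of it. PDIA3 (ERp57) and PDIA6 (P5) form and rearrange disulfide bonds. HERPUD1 (Herp) is a membrane protein of the degradation machinery, and XBP1 is the transcription factor itself, whose spliced and unspliced forms a value per gene does not separate. The ER HSP70 (BiP) and the other ER genes that lie on chromosomes 3 to 9 are not analysed here.

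The induced miRNA and the promoter elements of the ER genes are printed first, because they are the sequences through which these genes could be compared with each other and with the rest of the genome. Sequences of the miRNA and of promoters are from RefSeq (GRCh38.p14), and gene models are from GENCODE 29 (GRCh38), another build than the GRCh37/hg19 named in the submitters' processing notes. The mature miRNA is shown with its seed (bases 2 to 8) in capitals.
hsa-miR-139-5p: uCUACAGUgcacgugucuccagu
The matching DNA word, ACTGTAG, occurs in the longest annotated 3′ UTR of 1 of the 8 genes, DNAJC3, at bases 2377 to 2383 of 3959 on chromosome 13. Over all annotated genes it occurs in 1938 of 19132, or 10.1%. The DNAJC3 site is shown with the match in capitals.
DNAJC3 3′ UTR: ctgcctgtctcACTGTAGggtagcattat

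Promoter windows of 300 bases, 250 before and 50 from the annotated start onward, were searched on both strands for a pair of textbook elements. The first was CCAAT followed by any 9 bases and CCACG, known as the ER stress response element. The second was ATTGG, the reverse complement of CCAAT, followed by any 1 base and CCACG, known as its type II form. The elements share the word CCACG, and each was counted for itself. The first occurred in 27 of 35116 RefSeq promoters (0.0769%) and the second in 19 (0.0541%). RefSeq promoters were at hand for 7 of the 8 genes (all but PDIA3), and 6 of these 7 held one of the elements in at least 1 promoter. HSP90B1 held the first element on either strand, at −194 to −176 and at −89 to −71 from the start. PDIA6 held it at −86 to −68 of the downstream of its promoters and XBP1 at −52 to −34 of the upstream of its own. HYOU1 held the second element at −185 to −175 and again at −79 to −69, SDF2L1 at −188 to −178 and HERPUD1 at −117 to −107. DNAJC3 (chr13:95677139-95794989, plus strand) held no match in this window. PDIA3 lies at chr15:43746392-43773279 on the plus strand. The genes were already known as targets of the unfolded protein response, so these matches describe the chosen genes and test nothing. The promoters of the 4 genes with the largest differences described further on are shown whole, and stretches around the element are shown for PDIA6 and HYOU1, with the words of the element in capitals.
HSP90B1 (chr12:103930160-103930459, plus strand): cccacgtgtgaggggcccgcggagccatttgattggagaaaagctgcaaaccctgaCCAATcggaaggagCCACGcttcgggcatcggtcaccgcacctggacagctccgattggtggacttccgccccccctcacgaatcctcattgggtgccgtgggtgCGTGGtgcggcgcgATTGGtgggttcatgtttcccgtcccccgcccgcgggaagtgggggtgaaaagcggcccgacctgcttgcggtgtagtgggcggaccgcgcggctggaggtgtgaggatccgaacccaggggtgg
HERPUD1 (chr16:56931892-56932191, plus strand): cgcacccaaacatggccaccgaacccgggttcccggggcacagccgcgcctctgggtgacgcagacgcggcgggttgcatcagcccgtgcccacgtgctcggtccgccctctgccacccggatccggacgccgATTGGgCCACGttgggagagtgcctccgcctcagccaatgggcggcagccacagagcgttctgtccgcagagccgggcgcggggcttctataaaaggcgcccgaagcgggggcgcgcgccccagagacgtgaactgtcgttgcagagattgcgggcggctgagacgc
SDF2L1 (chr22:21642052-21642351, plus strand): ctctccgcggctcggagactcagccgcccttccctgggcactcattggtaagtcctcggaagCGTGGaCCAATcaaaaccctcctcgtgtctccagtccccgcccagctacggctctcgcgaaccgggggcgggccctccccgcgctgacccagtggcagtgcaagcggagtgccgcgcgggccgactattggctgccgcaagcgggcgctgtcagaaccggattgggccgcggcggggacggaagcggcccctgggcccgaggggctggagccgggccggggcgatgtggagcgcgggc
XBP1 (chr22:28800520-28800819, minus strand): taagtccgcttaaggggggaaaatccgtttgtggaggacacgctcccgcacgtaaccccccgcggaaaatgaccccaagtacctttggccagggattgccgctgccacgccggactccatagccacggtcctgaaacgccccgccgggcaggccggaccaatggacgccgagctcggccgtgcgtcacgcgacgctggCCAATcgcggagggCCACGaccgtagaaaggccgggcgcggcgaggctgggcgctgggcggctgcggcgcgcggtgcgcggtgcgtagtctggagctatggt
PDIA6 (from chr2:10812736-10813035, minus strand): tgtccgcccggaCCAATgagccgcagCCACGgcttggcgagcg
HYOU1 (from chr11:119057156-119057455, minus strand): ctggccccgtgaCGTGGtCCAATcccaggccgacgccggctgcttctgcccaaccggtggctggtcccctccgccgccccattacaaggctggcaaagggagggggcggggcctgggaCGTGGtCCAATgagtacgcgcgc
In HSP90B1 and XBP1 the capitals mark both words with 9 bases between them, and in HERPUD1 and SDF2L1 they mark words that 1 base separates. The element of SDF2L1, those of HYOU1 and the second of HSP90B1 run against the gene, so the order of the words is turned round there.

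Mean transcript levels of the 8 genes spanned from 12.6 to 536 FPKM. HSP90B1 averaged 536 ± 103 FPKM over the 12 libraries (SD), which ranked it 148 among the 9778 tested genes. PDIA3 followed with 364 ± 21.6 FPKM and PDIA6 with 216 ± 12.2 FPKM (SD, n = 12 each). These first 3 did not overlap except at the low end of HSP90B1, whose lowest library, at 342 FPKM, lay below the highest library of PDIA3, at 406 FPKM. HYOU1 at 71.7 ± 6.82, XBP1 at 66.9 ± 20.3 and HERPUD1 at 55.3 ± 15.3 FPKM came next and overlapped one another (SD, n = 12 each). SDF2L1 averaged 29.4 ± 10.8 FPKM and reached into the range of XBP1 and HERPUD1 in its highest libraries, and DNAJC3 was lowest with 12.6 ± 1.81 FPKM, ranked 5259 (SD, n = 12 each). Together the 8 genes made up between 0.183% and 0.265% of the FPKM of a library.

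The tags, rather than the groups, held most of the spread of 7 of the 8 genes. The share of all tested genes for which this holds is not given. On the log2(FPKM + 1) scale, the tag took 87.5% of the sum of squares of SDF2L1, 84.1% of that of HSP90B1, 81.4% of that of HERPUD1, 73.6% of that of HYOU1, 64.3% of that of DNAJC3, 62% of that of XBP1 and 50.4% of that of PDIA3. PDIA6 was the exception, with 66% of its sum of squares between groups and 7.61% between tags. The group comparisons were therefore also fitted with the tag as a replicate block. Tag differences were common: 52% of the 9778 tested genes were called for NE against C and TR (limma, adjusted p under 0.05). In each group comparison without the block, 0% were called.

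**Figure D1:**
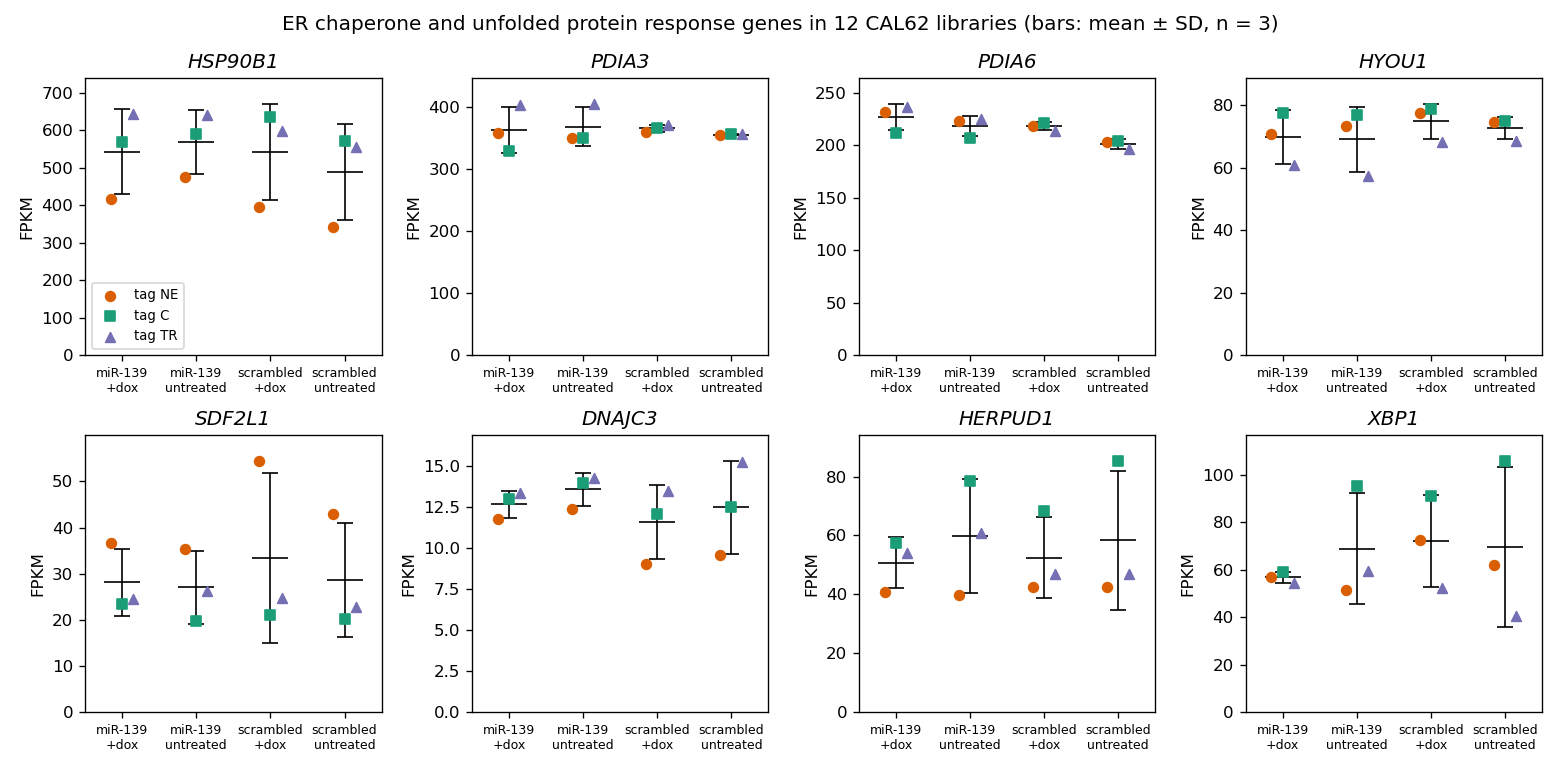
FPKM (y axis, from 0, a scale of its own in each panel) of the 8 ER genes in the 4 groups (x axis), 1 point per library with its column tag, and the mean ± SD of the 3 libraries of a group as bars. The NE libraries are the lowest of every group for HSP90B1, between 342 and 475 FPKM, and the highest for SDF2L1, between 35.4 and 54.5 FPKM.

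The design sets cells with induced miR-139-5p against the same line without doxycycline and against a line with a control insert. HNRNPF, which the series names as lowered by the miRNA, stood at 113, 96.7 and 85.9 FPKM in the NE, C and TR libraries of the treated miR-139 line, against 238, 193 and 184 FPKM in the untreated miR-139 line. It stood at 265, 198 and 184 FPKM in the treated scrambled line, against 246, 191 and 188 FPKM in the untreated scrambled line. The treated miR-139 library was thus the lowest of each tag. None of the 8 ER genes passed the test in any of the 5 group comparisons (limma, Benjamini-Hochberg adjusted p under 0.05), with or without the block. These are bulk libraries, in which fewer cells of a kind and less RNA per cell cannot be told apart. Without the block, 0% of the 9778 genes were called in each of the 5 comparisons, and 41 to 105 genes reached 0.05 before adjustment. HNRNPF was thus not called without the block either. In the blocked fit, 0.0205% were called for doxycycline in the miR-139 line, 0% for doxycycline in the scrambled line, 0.0102% for the difference between these changes, 0.112% between the treated lines and 0% between the untreated lines.

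HSP90B1 stood at 418, 569 and 642 FPKM in the NE, C and TR libraries of the treated miR-139 line, against 475, 591 and 640 FPKM in the untreated miR-139 line. In the scrambled line it stood at 395, 634 and 598 FPKM after doxycycline, against 342, 571 and 554 FPKM without it. The groups overlapped, and the NE library of each lay far below the other two. Within the tags, the treated miR-139 library was lower than the untreated in NE and C and about level with it in TR, and the treated scrambled library was higher than the untreated in all 3. The log2 difference for doxycycline was −0.08 in the miR-139 line, against 0.16 in the scrambled line (block SE 0.10 each), and the difference between these was −0.23 (block SE 0.15, adjusted p = 0.9997). Between the untreated lines HSP90B1 was 0.24 higher in the miR-139 line (block SE 0.10) (adjusted p = 0.928), the one difference among the 8 genes that reached 0.05 before adjustment.

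PDIA3 stood at 358, 329 and 403 FPKM in the NE, C and TR libraries of the treated miR-139 line, against 351, 350 and 406 FPKM in the untreated miR-139 line. In the scrambled line it stood at 360, 367 and 371 FPKM after doxycycline, against 355, 357 and 357 FPKM without it. The isomerase lay within 355 and 371 FPKM in all 6 scrambled libraries, with the treated ones above the untreated ones, and its groups overlapped in the miR-139 line. PDIA6 stood at 232, 212 and 236 FPKM in the treated miR-139 line, against 223, 207 and 225 FPKM in the untreated miR-139 line, in the same order of tags. It stood at 218, 221 and 214 FPKM in the treated scrambled line, against 203, 204 and 196 FPKM in the untreated scrambled line. In every tag the treated library was the higher one, and the groups did not overlap in the scrambled line, nor between the untreated lines, where the miR-139 libraries were the higher ones. PDIA3 and PDIA6 were thus 2 of 8 genes whose treated and untreated scrambled libraries did not overlap, as 2.69% of the tested genes were, and PDIA6 was 1 of 8 between the untreated lines, against 2.91%. The log2 difference of PDIA6 for doxycycline was 0.05 in the miR-139 line, against 0.12 in the scrambled line (block SE 0.08 each), and neither passed the test (adjusted p = 0.9997 and 0.9976 with the block).

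HYOU1 stood at 71, 77.7 and 60.8 FPKM in the NE, C and TR libraries of the treated miR-139 line, against 73.4, 76.8 and 57.4 FPKM in the untreated miR-139 line. Its values in the scrambled line were 77.7, 78.7 and 68.4 FPKM after doxycycline, against 74.6, 74.9 and 68.7 FPKM without it. The groups overlapped, and the log2 difference was 0.02 in the miR-139 line, against 0.04 in the scrambled line (block SE 0.08 each). DNAJC3, the one gene with a seed match, stood at 11.8, 13 and 13.4 FPKM in the treated miR-139 line, against 12.4, 14 and 14.3 FPKM in the untreated miR-139 line. In the scrambled line it stood at 9.08, 12.1 and 13.5 FPKM after doxycycline, against 9.58, 12.5 and 15.3 FPKM without it. The treated library was the lower one in every tag of both lines. The log2 differences were −0.08 in the miR-139 line, against −0.09 in the scrambled line (block SE 0.11 each), and the difference between them was 0.01 with a 95% interval of −0.32 to 0.34 in the blocked fit.

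SDF2L1 stood at 36.6, 23.5 and 24.5 FPKM in the NE, C and TR libraries of the treated miR-139 line, against 35.4, 19.7 and 26.2 FPKM in the untreated miR-139 line. It stood at 54.5, 21 and 24.8 FPKM in the treated scrambled line, against 42.9, 20.3 and 22.8 FPKM in the untreated scrambled line. The groups overlapped throughout, and the NE library was the high one in each. HERPUD1 stood at 40.9, 57.5 and 54 FPKM in the treated miR-139 line, against 39.9, 78.5 and 60.7 FPKM in the untreated miR-139 line. In the scrambled line it stood at 42.4, 68.2 and 47.1 FPKM after doxycycline, against 42.4, 85.4 and 47 FPKM without it. The treated C library was the lower of its pair in both lines, whereas the NE libraries of the 4 groups lay within 39.9 and 42.4 FPKM.

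XBP1 stood at 57, 59.2 and 54.3 FPKM in the NE, C and TR libraries of the treated miR-139 line, against 51.6, 95.5 and 59.7 FPKM in the untreated miR-139 line. It stood at 72.7, 91.1 and 52.4 FPKM in the treated scrambled line, against 62.1, 106 and 40.4 FPKM in the untreated scrambled line. The treated miR-139 line was the one group in which the C library did not stand well above the other two. The log2 difference for doxycycline in the miR-139 line was −0.22 (block SE 0.18, adjusted p = 0.9997), with an interval from −0.61 to 0.16. The difference from the scrambled line, which changed by 0.12 (block SE 0.18), was −0.35 (block SE 0.25, adjusted p = 0.9997). Over the 8 genes, the 95% intervals of the doxycycline difference in the miR-139 line lay within −0.61 and 0.34, so changes beyond this span were outside the interval of every gene.

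**Figure D2:**
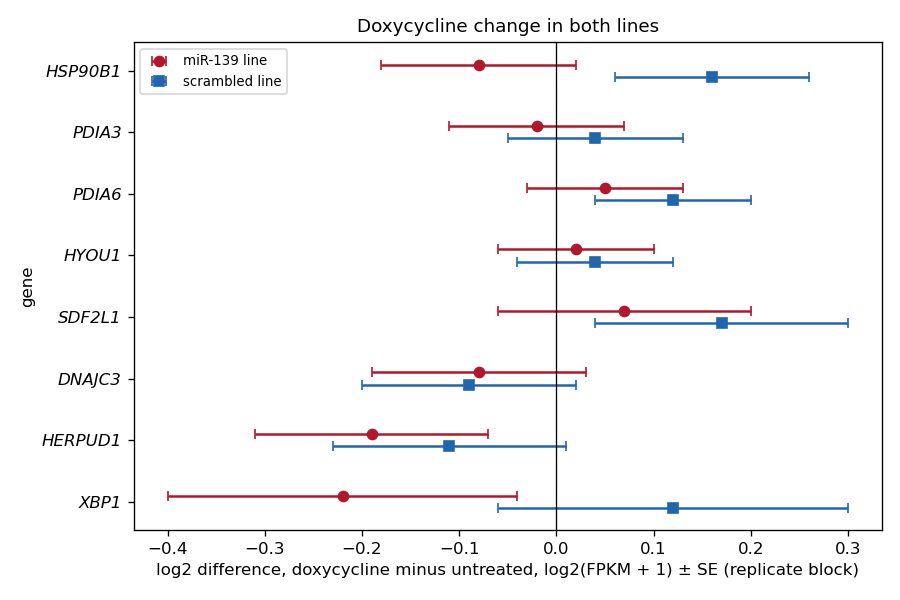
Log2 difference between doxycycline-treated and untreated libraries on the log2(FPKM + 1) scale (x axis) for each ER gene (y axis), for the miR-139 line (red) and the scrambled line (blue), with the SE of the fit that has the column tag as replicate block. In the miR-139 line the differences lie between −0.22 (XBP1) and 0.07 (SDF2L1), and none of the 16 points passed the test.

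The wider ER gene lists gave the same count in these comparisons. None of the tested genes among 29 chaperones and folding enzymes, 15 genes of ER-associated degradation, 15 sensors, proteases, transcription factors and downstream genes of the response, 14 genes of translocation and N-glycosylation, 14 genes of retrieval and ER-Golgi transport and 10 genes of ER calcium was called in any group comparison, with or without the block. For the difference between the lines in their doxycycline change, 0 of the 14 transport genes had a positive log2 value, with a median of −0.11 against −0.02 over all tested genes. Among the chaperones 4 of 29 were positive, with a median of −0.06. These values come from the same 12 libraries, and the share of positive values over all tested genes is not given. The counts of signs are thus no test of a shared change. The sensor genes ERN1, EIF2AK3 and ATF6 differed by −0.02, −0.07 and −0.07 on the log2 scale between treated and untreated miR-139 libraries (block SE 0.17, 0.12 and 0.12). ATF4 and its target DDIT3 (CHOP), a factor linked to cell death under lasting ER stress, differed by −0.11 and −0.28 (block SE 0.15 and 0.20). All 5 had an adjusted p of 0.9997.

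Between tags, 4 of the 8 genes differed when the NE libraries were set against those tagged C and TR, in a fit with the groups as covariates. HSP90B1, HERPUD1 and DNAJC3 were lower in NE, and SDF2L1 was higher. Such a difference was common: 52% of the 9778 tested genes were called in this comparison, 28% higher in NE and 24% lower. A count of 4 of 8 is thus at the background share. HSP90B1 averaged 407 ± 55.2 FPKM in the 4 NE libraries and 600 ± 34.8 FPKM in the 8 others (SD), a log2 difference of −0.56 (SE 0.08, adjusted p = 6.28e-05). HERPUD1 averaged 41.4 ± 1.21 FPKM in NE and 62.3 ± 14.1 FPKM in the others (SD, n = 4 and 8), a log2 difference of −0.55 (SE 0.09, adjusted p = 0.00031). All 4 NE libraries lay below all 8 others for both genes.

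DNAJC3 averaged 10.7 ± 1.64 FPKM in NE and 13.5 ± 1.02 FPKM in the C and TR libraries (SD, n = 4 and 8), a log2 difference of −0.32 (SE 0.08, adjusted p = 0.0053). NE was the lowest library of each group, yet the NE library of the untreated miR-139 line, at 12.4 FPKM, lay above the C library of the treated scrambled line, at 12.1 FPKM. The call ended without the treated scrambled libraries (adjusted p = 0.0508). SDF2L1 averaged 42.3 ± 8.77 FPKM in NE and 22.9 ± 2.33 FPKM in the C and TR libraries (SD, n = 4 and 8). Its log2 difference was 0.85 (SE 0.10, adjusted p = 1.61e-05), a 1.8-fold higher level, and all 4 NE libraries lay above all 8 others. Groups of libraries that did not overlap were seen for 24% of the tested genes. PDIA3, PDIA6, HYOU1 and XBP1 had log2 differences of −0.04, 0.03, 0.08 and −0.14 (SE 0.07, 0.06, 0.06 and 0.13), and none of these passed the test.

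Transcript length moved with this comparison. Over the 7963 tested genes with a GENCODE transcript, the median log2 difference of NE was 0.23 in the shortest of 5 equal groups by transcript length, then 0.13, 0.03 and −0.04, and −0.14 in the longest. SDF2L1 has the shortest transcript of the 8 genes, 865 bases, and DNAJC3 the longest, 5591 bases. With the length trend removed from each library, a step chosen after the trend was seen, SDF2L1 differed by 0.55 (adjusted p = 8.1e-06) and DNAJC3 by −0.23 (adjusted p = 0.00794). HSP90B1, with 2858 bases in the middle group, differed by −0.64 (adjusted p = 3.76e-06), and HERPUD1, with 2946 bases, by −0.61 (adjusted p = 3.51e-05). XBP1, with 1850 bases, then differed by −0.30 and passed the test (SE 0.11, adjusted p = 0.0348), which made 5 of 8 against 57.7% of the 7963 genes. Which property of the libraries the trend comes from was not tested.

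**Figure D3:**
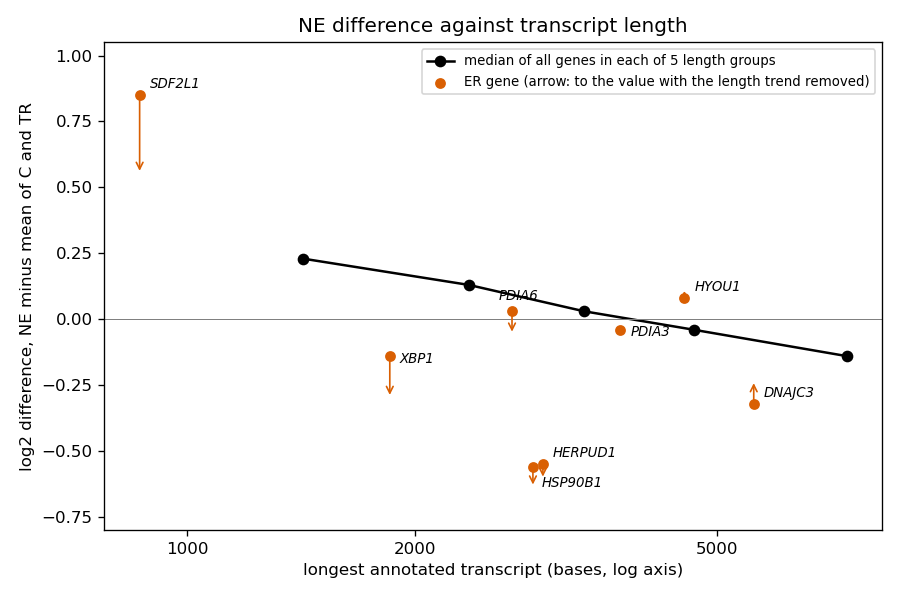
Log2 difference between NE libraries and the mean of C and TR libraries on the log2(FPKM + 1) scale (y axis) against the length of the longest annotated transcript (x axis, log scale), for the 8 ER genes (orange, with an arrow to the value after the length trend was removed) and as the median of all genes in each of 5 groups by length (black). The medians run from 0.23 to −0.14 with rising length, and HSP90B1 and HERPUD1 lie below them at −0.56 and −0.55.

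The size of the NE difference of SDF2L1 depended on the line. It was 0.59 in the treated and 0.62 in the untreated miR-139 libraries, against 1.22 in the treated and 0.96 in the untreated scrambled libraries. The difference between the lines was −0.49 (SE 0.12, adjusted p = 0.026, limma), in a test added after the data were seen, and 16.5% of all tested genes passed it. With the length trend removed the difference between the lines was −0.13 (adjusted p = 0.443) and was no longer called. HSP90B1 had an NE difference of −0.53 and −0.37 in the treated and untreated miR-139 libraries, against −0.64 and −0.72 in the treated and untreated scrambled libraries. Its difference between the lines was 0.23 (SE 0.09, adjusted p = 0.106) and, with the length trend removed, 0.30 (adjusted p = 0.0472).

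The C libraries differed from the TR libraries in 3 of the 8 genes, XBP1, HERPUD1 and HYOU1, all higher in C. In this comparison 16.6% of the tested genes were called, 8.16% higher in C and 8.49% lower. XBP1 averaged 88.1 ± 20.3 FPKM in C and 51.7 ± 8.16 FPKM in TR (SD, n = 4 each), a log2 difference of 0.74 (SE 0.15, adjusted p = 0.00612). HERPUD1 averaged 72.4 ± 12.2 FPKM in C and 52.2 ± 6.55 FPKM in TR (SD, n = 4 each), a log2 difference of 0.46 (SE 0.11, adjusted p = 0.0117). HYOU1 averaged 77 ± 1.6 FPKM in C and 63.8 ± 5.63 FPKM in TR (SD, n = 4 each), a log2 difference of 0.27 (SE 0.07, adjusted p = 0.0207). For HYOU1 all 4 C libraries lay above all 4 TR libraries, as the C and TR libraries of 27.9% of the tested genes did not overlap. For XBP1 and HERPUD1 the C library of the treated miR-139 line lay below the TR library of the untreated miR-139 line. The calls of HYOU1 and HERPUD1 ended without the libraries of the treated scrambled line, which left 1 of 8 genes called, and that of HERPUD1 also without all libraries, or only the C library, of the untreated scrambled line, and with no filter on low values. The call of HYOU1 ended also without the libraries of either miR-139 group and without any 1 of 5 single libraries, the C and TR libraries of both miR-139 groups and the C library of the treated scrambled line (adjusted p up to 0.147). With the length trend removed, the same 3 genes were called, with log2 differences of 0.79 for XBP1, 0.47 for HERPUD1 and 0.24 for HYOU1, where 25.3% of the 7963 genes with a length were.

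Within the groups, the XBP1 difference between C and TR was 0.12 in the treated and 0.67 in the untreated miR-139 libraries, against 0.79 in the treated and 1.38 in the untreated scrambled libraries. That of HERPUD1 was 0.09 and 0.37 in the treated and untreated miR-139 libraries, against 0.53 and 0.85 in the treated and untreated scrambled libraries. Both differences had the same sign in all 4 groups and were smallest in the treated miR-139 libraries. The difference between the lines was −0.69 for XBP1 (SE 0.23) and −0.46 for HERPUD1 (SE 0.16). Neither passed adjustment (adjusted p = 0.221 for both), and limma called 0 of 9778 genes in this test, with 1472 that reached 0.05 before adjustment. PDIA3, PDIA6, HSP90B1, DNAJC3 and SDF2L1 differed between C and TR by −0.13, −0.04, −0.04, −0.12 and −0.21 (SE 0.08, 0.07, 0.09, 0.09 and 0.11), none of which passed the test.

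Genes of the response were among those called between C and TR, where 8.16% of all tested genes were higher in C and 8.49% lower. Of 15 tested genes in a list of sensors, proteases, transcription factors and downstream genes, 7 were higher in C than in TR and 0 were lower, with a median log2 difference of 0.27 against 0.01 over all tested genes. The 7 were 3 of 11 sensors, proteases and transcription factors, namely XBP1, ATF4 and DDIT3, and 4 of 4 downstream genes, which are neither sensors nor factors. The list was chosen with earlier results of these data known, so its counts in either tag comparison describe it and test nothing. TRIB3, a pseudokinase induced by ATF4 and CHOP, averaged 79.3 ± 31.4 FPKM in C and 24.2 ± 3.36 FPKM in TR (SD, n = 4 each), a log2 difference of 1.59 (SE 0.20, adjusted p = 0.000235). CHAC1, an enzyme that degrades glutathione and is a target of the same arm, averaged 30 ± 9.1 FPKM in C and 11 ± 4.8 FPKM in TR (SD, n = 4 each), a log2 difference of 1.40 (SE 0.21). DDIT3 averaged 67 ± 20.2 FPKM in C and 28.7 ± 4.35 FPKM in TR (SD, n = 4 each), a log2 difference of 1.16 (SE 0.17). ATF4 differed by 0.52 (SE 0.13, adjusted p = 0.0167). The other downstream genes, named because the count was small, were the phosphatase subunits PPP1R15A (GADD34, 0.75) and PPP1R15B (0.36), which reverse the phosphorylation set by PERK. The sensors themselves did not pass the test, with 0.27 for ERN1, 0.13 for EIF2AK3 and 0.20 for ATF6 (SE 0.14, 0.10 and 0.10). Of 29 tested chaperones and folding enzymes, 2 were higher in C and 3 were lower.

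**Figure D4:**
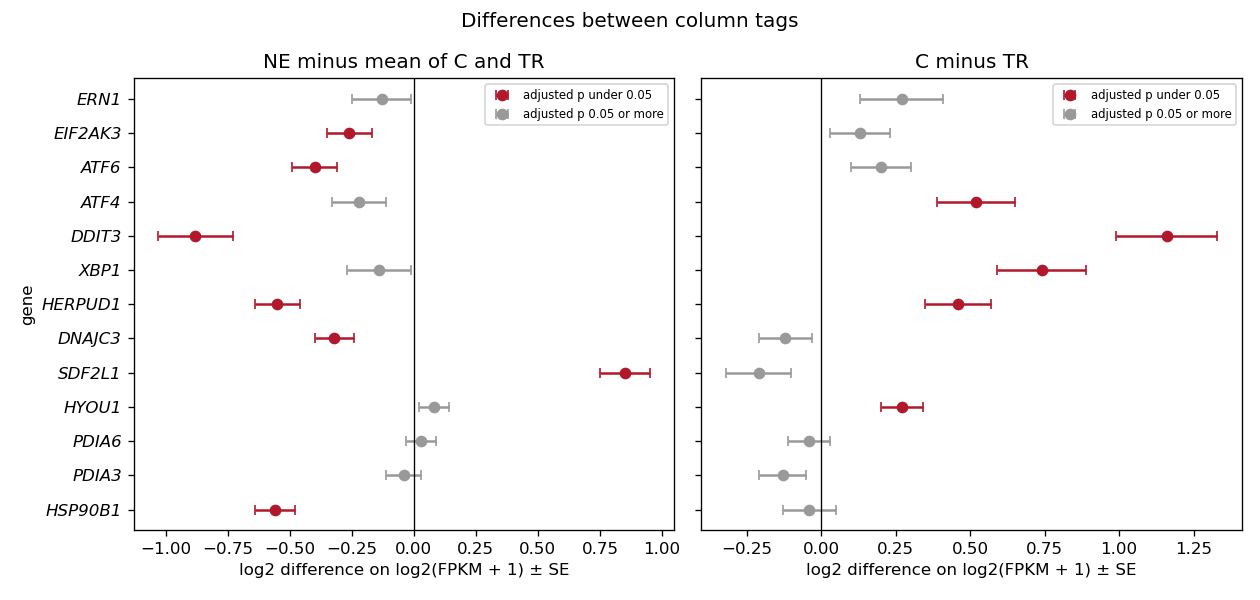
Log2 differences between column tags on the log2(FPKM + 1) scale with their SE (x axis), for the sensors ERN1, EIF2AK3 and ATF6, the factors ATF4 and DDIT3 and the 8 ER genes (y axis), as NE minus the mean of C and TR (left) and as C minus TR (right), coloured by the adjusted p. DDIT3 has the largest values shown, −0.88 on the left and 1.16 on the right, and XBP1 and HERPUD1 are the ER genes farthest to the right in the right panel, at 0.74 and 0.46.

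Set against C and TR, the NE libraries had 7 of these 15 genes lower and 1 higher, where 24% of all tested genes were lower and 28% higher. The median of the 15 was −0.24 against 0.02 over all tested genes. Of the 7, 5 were among the 11 sensors, proteases and transcription factors and 2 among the 4 downstream genes. CHAC1 averaged 6.48 ± 2.32 FPKM in NE (SD, n = 4), with a log2 difference of −1.35 (SE 0.18). DDIT3 averaged 22.9 ± 1.56 FPKM in NE (SD, n = 4), with a difference of −0.88 (SE 0.15, adjusted p = 0.000268), and MBTPS2, a protease that cuts ATF6, differed by −0.50 (SE 0.09, adjusted p = 0.00049). ATF6 differed by −0.40 (SE 0.09, adjusted p = 0.00222) and EIF2AK3 by −0.26 (SE 0.09, adjusted p = 0.0253). ERN1, at −0.13 (SE 0.12), and ATF4, at −0.22 (SE 0.11), did not pass the test. The gene that was higher was NFYC (0.23, SE 0.08), and NFYB (−0.29, SE 0.08) was among the lower ones. Both are subunits of the factor that binds CCAAT, one of the words of the elements printed above. With the length trend removed, 9 of the 15 genes were lower and 0 were higher, so NFYC was no longer called. Of the 7963 genes with a length, 2274 were then lower and 2317 higher.

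The chaperone list was split. In NE, 10 of 29 tested chaperones and folding enzymes were higher and 5 were lower, with a median of 0.05, where 28% of all tested genes were higher and 24% lower. With the length trend removed, the split of the list turned round to 6 higher and 7 lower. Of the 7963 genes with a length, 57.7% were then called. Beside SDF2L1, the largest higher values were those of the peroxiredoxin PRDX4 (0.55) and of the prolyl isomerase FKBP11 (0.51). Beside HSP90B1, the largest lower values were those of the disulfide reductase DNAJC10 (−0.42) and of the oxidase ERO1LB (−0.41). Between C and TR, 8.16% of all tested genes were higher and 8.49% lower. Of the 29 in the list, 2 were higher, ERO1LB (0.45) and HYOU1, and 3 were lower, SDF2 (−0.52), a relative of SDF2L1, FKBP2 (−0.39) and CRELD2 (−0.37). CALR, the calcium-binding lectin chaperone that works with PDIA3, differed by 0.06 in NE (SE 0.08) and by −0.23 between C and TR (SE 0.09), and neither passed the test. With the length trend removed, its difference between C and TR did pass (adjusted p = 0.0321).

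In ER-associated degradation, 5 of 15 tested genes were higher in NE and 4 were lower, with a median of 0.01, where 28% of all tested genes were higher and 24% lower. The count was 3 higher and 5 lower with the length trend removed, where 57.7% of the 7963 genes with a length were called. UFD1L, a cofactor of the segregase that pulls proteins out of the membrane, averaged 123 ± 17.2 FPKM in NE, against 65.5 ± 2.76 FPKM in C and 83.6 ± 3.39 FPKM in TR (SD, n = 4 each), and VIMP (0.30) and DERL2 (0.28) followed it. VIMP did not pass with the trend removed (adjusted p = 0.161). Beside HERPUD1, SEL1L (−0.51), the scaffold of the membrane ubiquitin ligase, and the lectin ERLEC1 (−0.26) were lowest. Between C and TR, where 8.16% of all tested genes were higher and 8.49% lower, HERPUD1, DERL3 (0.37) and UBE2G2 (0.31) were higher and UFD1L (−0.35) was lower. The count of 3 higher calls was 0 without the libraries of the treated scrambled line.

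Over all tested genes, 28% were higher and 24% lower in NE, and 8.16% were higher and 8.49% lower in C against TR. With the length trend removed, 57.7% of the 7963 genes with a length were called in NE. Of 14 tested genes for the import and glycosylation of ER proteins, 6 were higher in NE and 1 was lower, with a median of 0.14. The largest were the mannosyltransferase ALG12 (0.48), the catalytic oligosaccharyltransferase subunit STT3A (0.45) and its partner DAD1 (0.43), and the lower one was ALG5 (−0.46). Removing the length trend gave 3 higher and 2 lower. Between C and TR, 0 were higher and 3 lower, SPCS2 (−0.39), SEC11C (−0.31) and MAGT1 (−0.25). In retrieval and transport, 3 of 14 were higher in NE, SEC23B (0.49), COPE (0.35) and SEC24C (0.19), and 3 were lower, the cargo receptor LMAN1 (−0.65), COPB1 (−0.49) and TMED10 (−0.18), and between C and TR only SAR1A (−0.24) was called. Once the length trend was removed, 2 were higher in NE and 5 lower, and COPE did not pass (adjusted p = 0.18). Of 10 ER calcium genes, ORAI1 (0.53), the store-operated calcium channel of the plasma membrane, was higher in NE, and 4 were lower, among them NUCB2 (−0.67), ITPR2 (−0.41) and RCN1 (−0.35), while 0 were called between C and TR. ITPR2 did not pass once the length trend was removed (adjusted p = 0.0558).

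**Figure D5:**
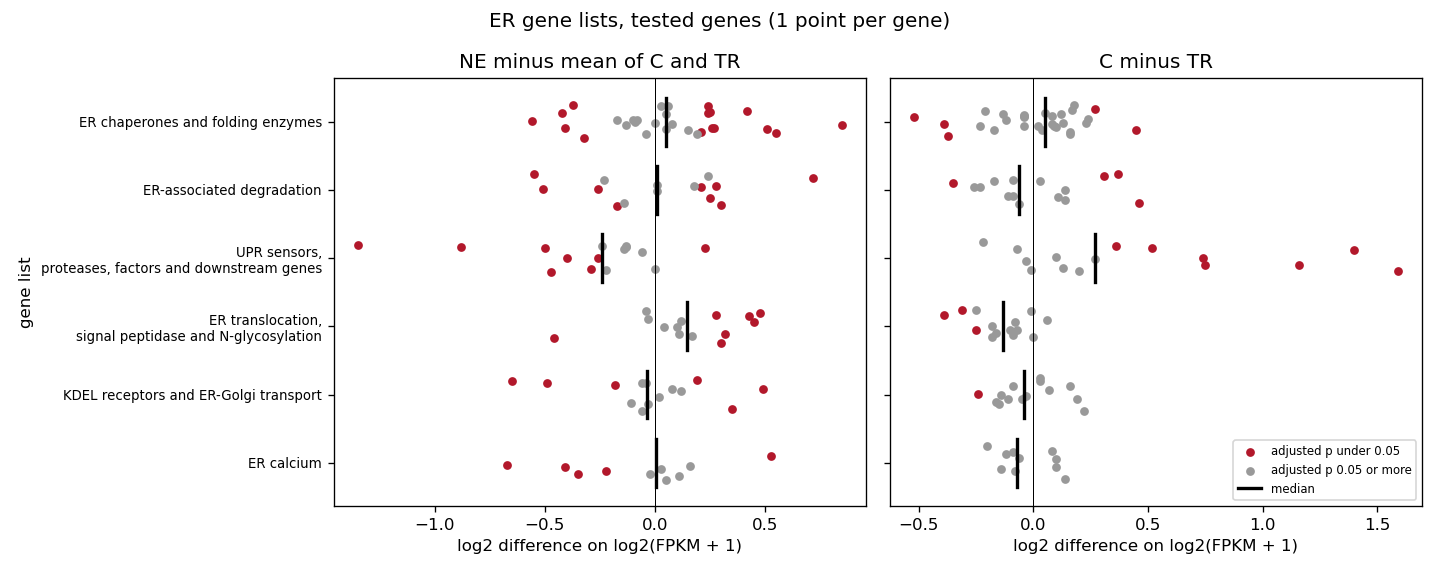
Log2 differences between column tags on the log2(FPKM + 1) scale (x axis) of the tested genes of 6 ER gene lists (y axis), 1 point per gene, red where the adjusted p was under 0.05, with the median of each list as a bar. The sensors, proteases, factors and downstream genes have a median of −0.24 for NE minus C and TR and of 0.27 for C minus TR, where 7 of their 15 points are red, 4 of them downstream genes. Of all tested genes, 52% were called for NE minus C and TR and 16.6% for C minus TR.

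Outside the 8 genes, 18 tested genes held either element in a promoter. Of these, 5 were higher and 4 lower in NE, and 2 were higher and 2 lower in C against TR. These counts lie near the shares over all tested genes, 28% and 24% in NE and 8.16% and 8.49% in C against TR, and say nothing particular of the elements. Among them, ERO1LB was lower in NE by 0.41 on the log2 scale, and it also passed the test with the length trend removed (adjusted p = 0.0022). CRELD2 was higher by 0.26 and passed the test, but not with the trend removed (adjusted p = 0.291). Among the 8 genes, SDF2L1 and HERPUD1 both hold the type II element and differed in NE with opposite signs. HSP90B1 and XBP1 both hold the first element and, in the main fit, differed in which of the tag comparisons called them. With the length trend removed, both were called lower in NE, at −0.64 for HSP90B1 and −0.30 for XBP1. The call of XBP1 between C and TR ended with no filter on low values (limma, adjusted p = 0.0654).

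The 8 profiles differed from one another. The closest pair was PDIA3 and PDIA6, whose centred log2 profiles over the 12 libraries lay 0.0782 apart (root mean square). Both profiles were nearly flat, with a root mean square of their own of 0.0802 for PDIA3 and 0.0777 for PDIA6. Their distance was thus about as large as their own variation. HSP90B1 lay nearest to DNAJC3 (0.174) and HERPUD1 to XBP1 (0.264). SDF2L1 and HERPUD1 were farthest apart, at 0.745. The genes nearest to the median profile of the 8 were FBXO34 (0.0561), C14orf166 (0.0643), RNF185 (0.0649), WHAMM (0.065) and DNAJC1 (0.0658), an ER J-domain protein, against a median distance of 0.23 over the tested genes. That median profile was itself nearly flat (root mean square 0.0701), so genes that vary little lie near it. Taken one by one, the nearest genes were METAP2 for HSP90B1 (0.0529), RPL6 for PDIA3 (0.0523), SEP15 for PDIA6 (0.0523), PATL1 for HYOU1 (0.0388), HMOX2 for SDF2L1 (0.0705), KIF3B for DNAJC3 (0.0542), GP1BA for HERPUD1 (0.108) and LMO4 for XBP1 (0.126). PDIA3 and PDIA6 varied little, so other genes that vary little lie near them. ATF4 was the third nearest to XBP1 (0.132).

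Some values may share reads with other features. The processed copies HSP90B2P and HSP90B3P had at most 0.318 FPKM and PDIA3P had 1.95 to 3.77 FPKM. How the counting split reads between these copies and HSP90B1 or PDIA3 is not given in the sources used here. On the opposite strand, C12orf73 overlaps HSP90B1 and had 8.65 to 16.4 FPKM, and whether counting used strand is not stated either. Steps in low values gave relative depths of the libraries from 0.722 to 1.49, where the C library of the untreated miR-139 line is 1, and counts themselves could not be had, so no counting interval is given. Of the thyroid markers, PAX8 averaged 107 FPKM and HHEX 32.9 FPKM, while NKX2-1 was listed at 0 and TSHR and SLC5A5 were below 0.1 FPKM in every library. The 7 of 9 thyroid markers in the table summed to 147 to 185 FPKM in NE, 79.8 to 117 FPKM in C and 145 to 175 FPKM in TR. The leukocyte markers PTPRC and CD3E were listed at 0, and the 5 of 6 in the table, nearly all CD68, summed to 7.92 to 11.5 FPKM in NE, 9.97 to 12.6 FPKM in C and 5.34 to 6.95 FPKM in TR. The 3 of 6 endothelial markers in the table summed to 1.8 to 3.06 FPKM in NE, 0.987 to 1.42 FPKM in C and 2.23 to 2.54 FPKM in TR. The 4 of 6 fibroblast markers in the table, nearly all COL1A1 with COL3A1 listed at 0, summed to 41.6 to 57.2 FPKM in NE, 33.3 to 58.5 FPKM in C and 83.9 to 101 FPKM in TR. The part of these markers in the differences of the ER genes between tags was not tested.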

How the data were processed

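PolyA RNA of 12 CAL62 libraries was analysed from a table of FPKM values per gene that the authors deposited. Per the submitters' processing notes, the tools included STAR 2.5, TopHat2 2.0.10, HTSeq and Cufflinks, and the builds were GRCh37 and hg19. Which tool made the FPKM, and whether strand was used, is not given in the sources used here. Chromosomes 3 to 9 are not analysed here. Since FPKM carry no counts, log2(FPKM + 1) was tested with limma 3.58.1 in R 4.3.3 for genes with a mean of at least 1 FPKM (9778 of 37471), with moderated variances that follow a trend on expression. P-values are two-sided and adjusted over all tested genes (Benjamini-Hochberg, 0.05). On this scale, changes of low genes come out too small.

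One fit had the 4 group means and gave the 5 group comparisons. Another had the tag and the group and gave the 2 tag comparisons. Headers gave a group and a tag but no replicate letter. Same-tag libraries deviated from their group means together (r from 0.326 to 0.858 over 18 pairs, against −0.659 to 0.144 over 36 pairs of different tags), so the tag also served as a replicate block. No source says that libraries came from separate cultures, so the spread behind the p-values may be a technical one between libraries. No library was left out, and 0 pairs were identical.

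The 8 genes and the gene lists were chosen with earlier results of these data known. Named genes are the 8, the regulators ERN1, EIF2AK3, ATF6, ATF4 and DDIT3, up to 3 called genes per list and direction with the largest log2 difference, the 5 genes nearest to the median profile, and HNRNPF. The nearest gene to each of the 8, CALR, CRELD2 as a motif holder, NFYB, PPP1R15A and PPP1R15B were named after their values were seen. The fits were tested on simulated data. Length-trend removal took a lowess curve (span 0.3) on log10 longest transcript length from each library, and it and the line-by-tag test were added after the data were seen. Transcript lengths were found for 81.4% of the tested genes. A thyroid marker is not reported here.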

Additional observations from a re-analysis of the deposited data

Results flagged for a closer look

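SDF2L1, the ER protein that was higher in NE libraries, had an NE difference that was smaller in miR-139 libraries than in scrambled ones. The difference between the lines was −0.49 on the log2 scale (SE 0.12, adjusted p = 0.026, limma line-by-tag term, added after the data were seen). The NE libraries stood at 36.6 and 35.4 FPKM in the treated and untreated miR-139 line, against 54.5 and 42.9 FPKM in the treated and untreated scrambled line, so all 4 moved the same way from their groups and differed in size. The line-by-tag term was called for 16.5% of the tested genes. With the length trend removed it was −0.13 for SDF2L1 (adjusted p = 0.443).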

How the results depend on the processing

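In the 5 group comparisons 0 of the 8 genes were called with the replicate block, without it and under all other alternatives. For NE against C and TR the count of 4 ranged from 3 to 6, and it was 4 without each library in turn. For C against TR the count of 3 was 1 without the libraries of the treated scrambled line and 1 with no filter on low values, and 2 to 3 without each library in turn, and the cause was not tested. Quantile normalization turned the NE difference of PDIA6 to −0.16, past the test (adjusted p = 0.0383). It also called PDIA3, and removal of the length trend called XBP1. HSP90B1, SDF2L1 and HERPUD1 were called in NE under all 24 alternatives. In C against TR, XBP1 was called under 23, HERPUD1 under 20 and HYOU1 under 16 of 24. Of all calls in NE, 53.9% were higher as deposited and 39.7% with upper quartile scaling, under which the median over all tested genes was −0.07 in place of 0.02. The 10 chaperones called higher in NE ranged from 5 to 12 over the alternatives and the 5 called lower from 4 to 13. The 7 sensors, factors and downstream genes called lower in NE ranged from 5 to 9, and the 7 called higher in C from 5 to 7. Relative depth spanned 0.722 to 1.49, and 3 libraries per group limit the precision of the group comparisons.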
